A study of Homo sapiens with 18 samples.

Results

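Mucins and trefoil factor 3 were followed in HT29, a human colorectal adenocarcinoma cell line, and in HTOXAR3, its subline made resistant to oxaliplatin (OXA), a platinum drug, by continuous exposure to increasing doses of it. The members were chosen by name: MUC1, MUC2, MUC4, MUC5AC, MUC5B, MUC12, MUC13, MUC17, MUC20 and TFF3, which are 10 of the 36204 gene names on the array and 24 of its 58717 non-control spots. RNA was measured on 18 one-colour arrays, 3 for each of 6 groups: HT29 left untreated, HT29 given 10 µM OXA, HT29 given 10 µM OXA with 10 µM Curcumin (a plant polyphenol), HTOXAR3 left untreated, HTOXAR3 given 30 µM OXA, and HTOXAR3 given 30 µM OXA with 10 µM Curcumin. Treatments lasted 24 h. The labels and the study's methods call the control groups untreated, while its results describe vehicle treatment. OXA doses differed between the lines, no group received Curcumin alone, and HTOXAR3 is a single subline derived from HT29. The labels call the 3 samples of a group biological replicates.

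Mucins are large proteins whose serine- and threonine-rich repeats carry dense O-linked sugars. MUC2, MUC5AC and MUC5B are secreted and form gels, and MUC2 is the main mucin of colonic mucus, made by goblet cells. MUC1, MUC4, MUC12, MUC13, MUC17 and MUC20 span the membrane and form part of the surface coat of epithelial cells. TFF3 is a small secreted peptide that goblet cells release together with MUC2 and that takes part in repair of the epithelium. HT29 cells are known as a line from which mucus-secreting or absorptive cells can be derived by culture conditions or drug selection.

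The array reads each gene through probes of 60 bases, and for the members there were 24 such probes, with 1 probe each for MUC5B, MUC13 and MUC20. The level of a gene is taken from its brightest probe, as a log2 normalized intensity, and a probe counts as detected on an array where the scanner software called it well above background. Of the 24 probes, 11 were well above background on all 18 arrays, 8 on 1 array or none. Positions are those in the array files (build hg19, GRCh37), and strands follow the order of the coordinates there.

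The TFF3 and MUC2 probes printed here are those that bear on how far separate parts of a gene gave the same answer. The printed TFF3 probe lies at chr21:43733595-43733654 on the minus strand, and the MUC2 probe A_33_P3401571 at chr11:1092337-1092396 on the plus strand. The brightest TFF3 probe, A_23_P393099, is not printed. It is mapped to a span of 37 bases, chr21:43731777-43731813, shorter than the probe. MUC2 probe A_23_P256784 is mapped to a span of 274 bases, chr11:1103558-1103831, longer than the probe.
TFF3 A_33_P3334305: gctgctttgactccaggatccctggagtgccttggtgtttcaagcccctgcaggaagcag
MUC2 A_23_P256784: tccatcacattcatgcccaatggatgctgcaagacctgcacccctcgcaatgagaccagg
MUC2 A_33_P3401571: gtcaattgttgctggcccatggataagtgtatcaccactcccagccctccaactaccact

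The 4 MUC4 probes are printed because 3 of them lie in repeated sequence. Capitals mark stretches of at least 12 bases that recur in another of these MUC4 probes. A_24_P239176 (chr3:195514760-195514819) and A_24_P239177 (chr3:195514780-195514839) overlap by 40 bases, and A_33_P3417281 (chr3:195506310-195506369), whose start lies 8450 bases away, still shares a run of 21 bases with A_24_P239177. A_24_P208825 (chr3:195474164-195474223) shares no more than 6 bases in a row with the others. All 4 are on the minus strand. The 3 repeat probes are therefore not independent readings of MUC4.
MUC4 A_24_P239176: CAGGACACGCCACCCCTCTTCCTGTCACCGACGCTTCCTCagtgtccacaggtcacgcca
MUC4 A_24_P239177: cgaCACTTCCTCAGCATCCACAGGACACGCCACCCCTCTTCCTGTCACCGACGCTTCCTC
MUC4 A_33_P3417281: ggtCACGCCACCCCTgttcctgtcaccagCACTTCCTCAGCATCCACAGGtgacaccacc
MUC4 A_24_P208825: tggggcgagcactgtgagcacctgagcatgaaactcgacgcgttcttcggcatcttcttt

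Between 52.4% and 63.6% of non-control spots were well above background on an array. Of 9 colorectal epithelial markers, 7 were well above background on all 18 arrays, with EPCAM at 16.39 in untreated HT29 and 16.20 in untreated HTOXAR3. CDX2, an intestinal transcription factor, averaged 7.10 in untreated HT29 and was well above background on only 1 of 3 untreated HTOXAR3 arrays, at a mean of 4.93. Of 6 fibroblast markers, COL1A2, COL3A1 and PDGFRA were well above background on no array, and the other 3 on some arrays but not on all 18. Of 4 endothelial markers, 2 were well above background on all 18. Of 6 leukocyte markers 5 were on all 18, with CD79A and CD14 at 11.38 and 11.14 in untreated HT29. The summed leukocyte marker intensity ranged over 12.23 to 12.44 (log2) in untreated HT29 and 12.43 to 12.50 in untreated HTOXAR3. It was 11.68 to 11.96 with OXA and 12.06 to 12.26 with the combination in HT29, and 12.12 to 12.21 and 12.18 to 12.21 in HTOXAR3, so that every treated group except the combination in HT29 lay below its untreated group without overlap. The fibroblast sum in HT29 was 6.37 to 6.67 untreated, 6.77 to 6.89 with OXA and 6.77 to 7.58 with the combination. In HTOXAR3 its ranges overlapped. The epithelial sum in HT29 was 19.47 to 19.53, 19.60 to 19.66 and 19.64 to 19.73 in the same order. In HTOXAR3 it was 19.52 to 19.56, 19.52 to 19.54 and 19.71 to 19.72. The endothelial sums of treated and untreated groups overlapped in both lines. The part of these markers in the results was not tested.

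Of the 10 members, 7 had signal to compare: TFF3, MUC1, MUC2, MUC4, MUC5AC, MUC13 and MUC20 were well above background on all 18 arrays. MUC5B, a gel-forming mucin best known from airways and glands, was well above background on 0 of 18 arrays, with values from 3.36 to 4.37. MUC12 and MUC17, membrane mucins of the intestinal surface, were each well above background on 1 of 18 arrays by their brightest probe, both times an HT29 array given OXA. Among their dimmer probes, MUC12 A_32_P504827 (5.46) and MUC17 A_23_P306610 (5.17) passed on 1 untreated HTOXAR3 array each, and MUC12 A_33_P3352038 (4.83) on 1 HT29 array given OXA. On the brightest probes, values ran from 3.53 to 5.27 for MUC12 and from 3.62 to 5.24 for MUC17. No value of these 3 genes is read as a level or a change. No member spot was saturated or marked as an outlier.

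**Figure D1:**
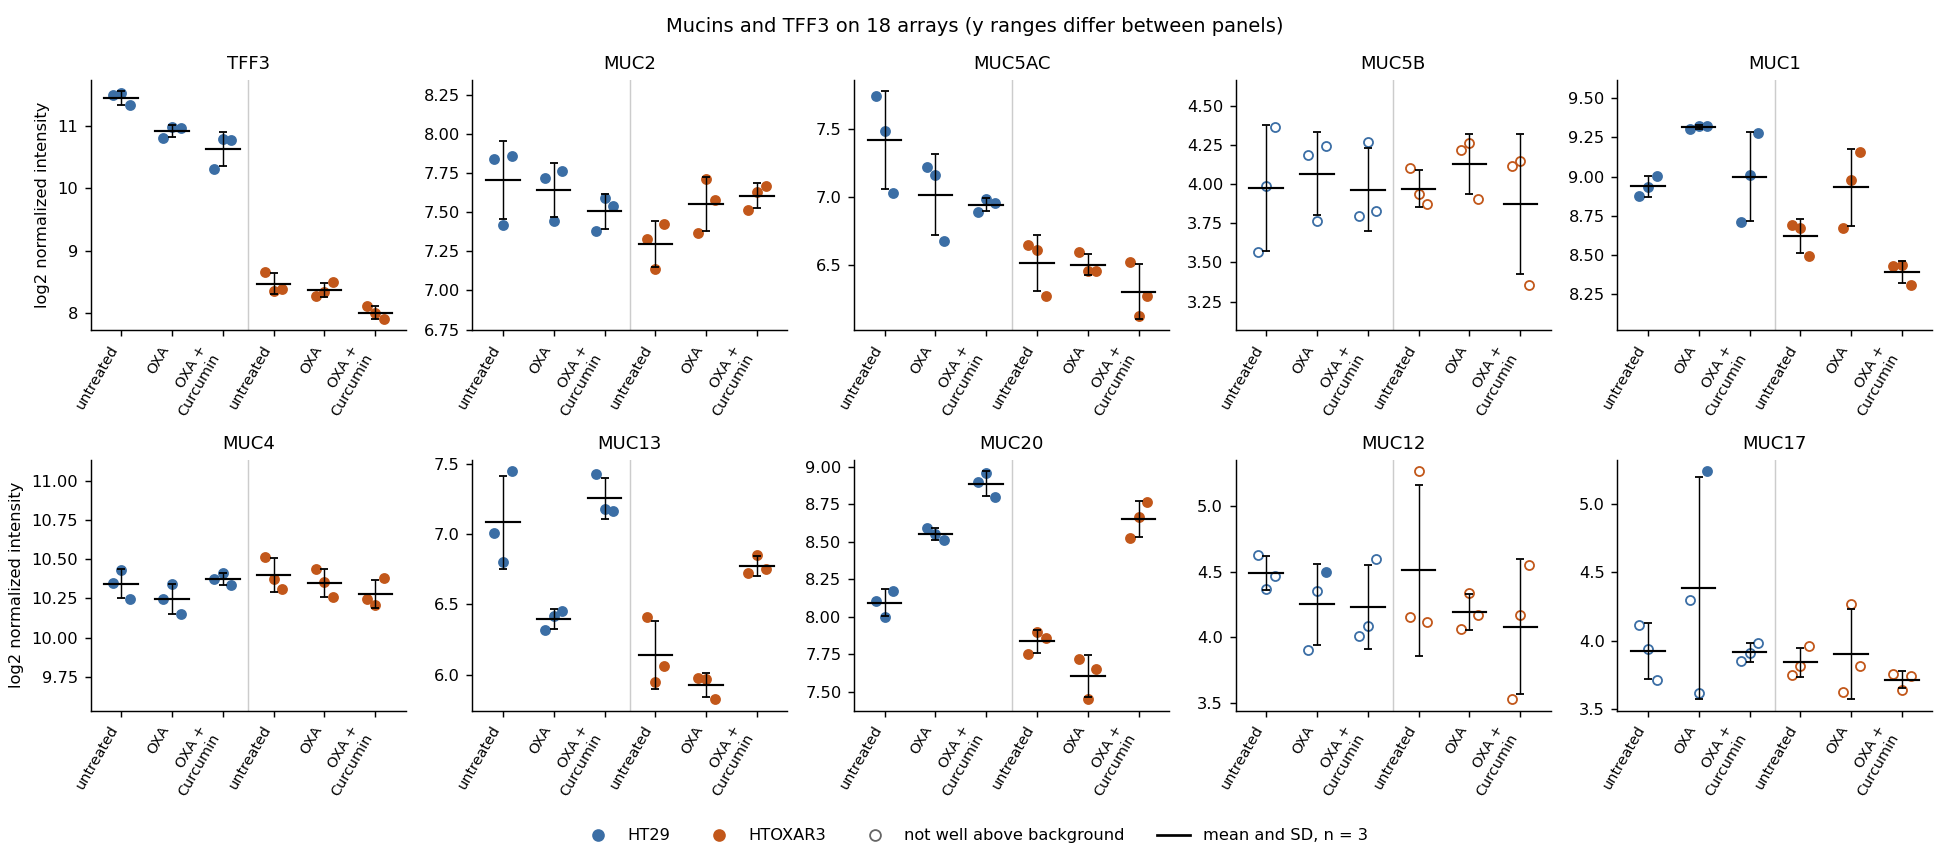
Log2 normalized intensity of each member (y axis, with a range of its own in each panel) on every array, by cell line and treatment (x axis); points are arrays, open where the probe was not well above background, bars are the mean and SD of 3 arrays. For TFF3, all 9 HTOXAR3 arrays lie below all 9 HT29 arrays. MUC20 is above untreated in both lines under OXA plus Curcumin, and the points of MUC5B, MUC12 and MUC17 are open on all but 1 or 0 arrays.

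Among the members, the untreated lines differed most in TFF3. TFF3 read 11.49, 11.53 and 11.32 on the untreated HT29 arrays and 8.66, 8.36 and 8.39 on the untreated HTOXAR3 arrays. The groups did not overlap, and TFF3 was 7.88-fold lower in HTOXAR3 (log2 difference -2.98, SE 0.13, adjusted p = 7.79e-09). Here and below, adjusted p is limma's with Benjamini-Yekutieli adjustment over all gene names, and a gene was called where it was under 0.05 and the fold change exceeded 1.2. In these bulk RNA samples, fewer cells of a kind and less RNA per cell cannot be told apart.

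The line difference in TFF3 was seen on all arrays and on more than 1 probe. Over all treatments it ranged from 10.31 to 11.53 on the 9 HT29 arrays and from 7.91 to 8.66 on the 9 HTOXAR3 arrays. Probe A_33_P3334305, printed above, was called as well, at -2.39 (SE 0.15, adjusted p = 3.83e-07 over 50599 probes). The dimmer A_24_P289208 was at -0.84 (SE 0.24, adjusted p = 0.26). Within each slide that held both untreated lines, TFF3 was lower in HTOXAR3 by a log2 difference of -3.02 on slide 2 and -2.94 on slide 3.

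MUC13, a membrane mucin of the intestinal epithelium, read 7.01, 6.80 and 7.45 in untreated HT29 and 6.41, 5.95 and 6.07 in untreated HTOXAR3. The groups did not overlap, and MUC13 was 1.92-fold lower in HTOXAR3 (log2 difference -0.94, SE 0.15, adjusted p = 0.0032). The difference was -0.62 on slide 2 and -1.38 on slide 3. It stayed called when any single array of the untreated groups was left out, but not in a fit of only the untreated groups (adjusted p = 0.486).

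MUC5AC, a gel-forming mucin of the stomach and airways that is also found in some colorectal tumours, read 7.74, 7.49 and 7.03 in untreated HT29 and 6.65, 6.62 and 6.28 in untreated HTOXAR3. It was 1.87-fold lower in HTOXAR3, with no overlap (log2 difference -0.90, SE 0.18, adjusted p = 0.0222). The call rests on probe A_24_P917886: A_33_P3216570 gave -0.57 (SE 0.31) and A_33_P3216568 gave -0.20 (SE 0.21), neither called, and the mean of the 3 probes gave -0.56 (adjusted p = 0.175). It was also lost without untreated HT29 replicate 1 (-0.74, adjusted p = 0.132) or 2 (-0.87, 0.112) and without untreated HTOXAR3 replicate 2 (-0.95, 0.0588) or 3 (-0.79, 0.141).

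MUC2 was not called between the untreated lines. It read 7.84, 7.42 and 7.86 in HT29 and 7.33, 7.13 and 7.43 in HTOXAR3, the groups overlapping by the lowest HT29 array (log2 difference -0.41, 95% interval -0.70 to -0.12, adjusted p = 0.493). The second MUC2 probe well above background on all 18 arrays, A_33_P3401571, gave -0.14 (SE 0.13). MUC1 was at -0.32 (interval -0.60 to -0.03) and MUC20 at -0.26 (interval -0.44 to -0.07), neither called. MUC4 read 10.34 ± 0.09 in HT29 and 10.40 ± 0.11 in HTOXAR3 (SD, n = 3), and its interval of the difference, -0.11 to 0.23, lay within a fold of 1.2.

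In all, 0 of the 10 members were called higher in untreated HTOXAR3, where 6.26% of all gene names were, and 3 were called lower, where 5.28% were. The median log2 difference was -0.29 over the 10 members, the 3 without readable signal included, and -0.03 over all gene names.

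**Figure D2:**
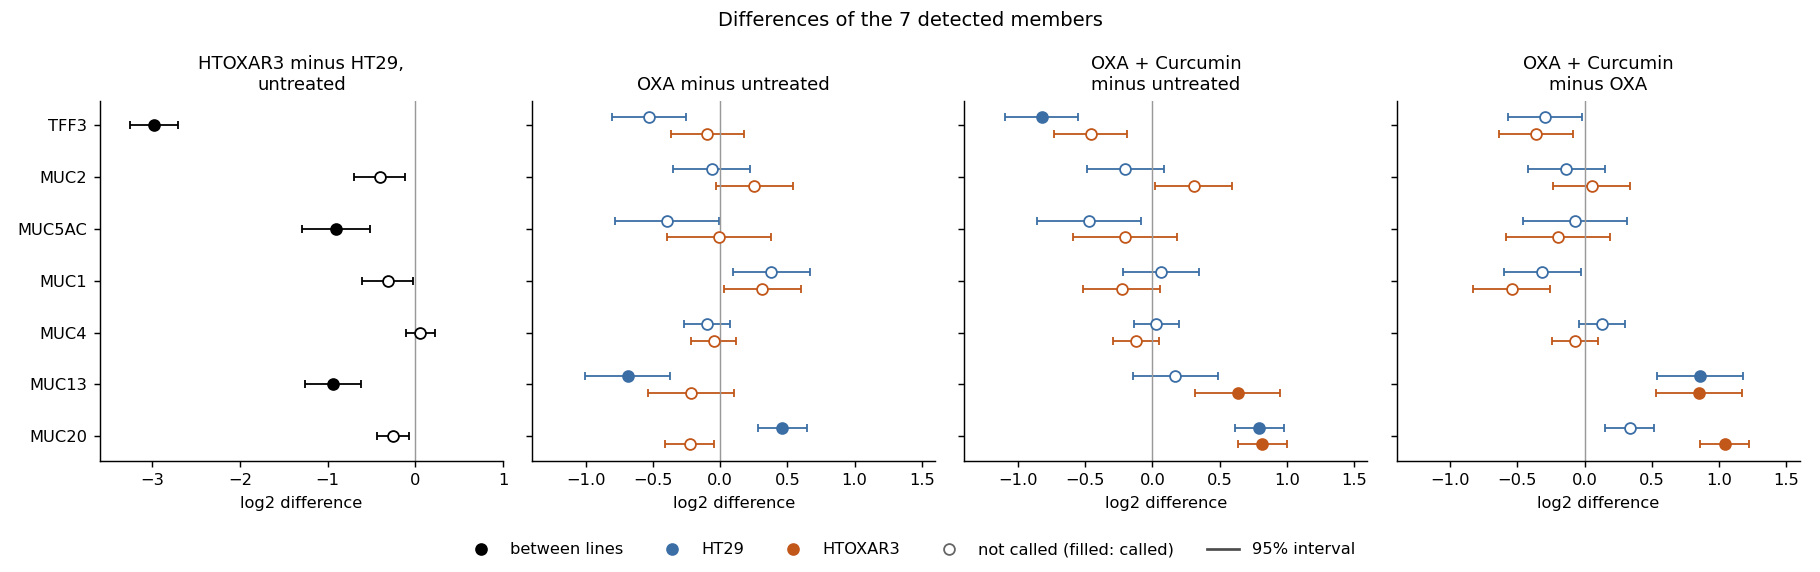
Log2 difference (x axis) of the 7 members well above background on all arrays (y axis) between the untreated lines, and for OXA, OXA plus Curcumin and the addition of Curcumin to OXA within HT29 and HTOXAR3; points are limma estimates from 3 arrays a group, bars the 95% interval, filled where called. TFF3 at -2.98 between the lines is the largest difference plotted, and MUC20 under OXA plus Curcumin is at 0.79 in HT29 and 0.82 in HTOXAR3.

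Of 26 other genes of the goblet cell secretory programme, 7 were called lower in untreated HTOXAR3 (26.9%, beside 5.28% of all gene names) and 1 higher (3.85%, beside 6.26%). The latter, GFI1, averaged 4.97 in untreated HT29, where it was well above background on 1 of 3 arrays, and 5.87 in untreated HTOXAR3, and it is named as the only higher call, outside the rule for named genes. The other 18 were not called, and the list's median was -0.25. ERN2, an endoplasmic reticulum stress sensor of mucus-secreting cells, was at -1.81 (SE 0.07, adjusted p = 2.02e-09). FOXA3, a forkhead transcription factor, was at -1.32, REG4, a secreted lectin, at -1.25 and SPDEF, a transcription factor of goblet cell maturation, at -0.86, all called. SPINK4, a secreted protease inhibitor of goblet cells, averaged 9.94 in untreated HT29 and 4.77 in untreated HTOXAR3, where it was well above background on 1 of 3 arrays; it is named because of that value and falls outside the rule for named genes. ATOH1, the transcription factor that starts the secretory lineage, was well above background on 0 of 18 arrays, as were CLCA1 and ZG16, products of mature goblet cells.

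**Figure D3:**
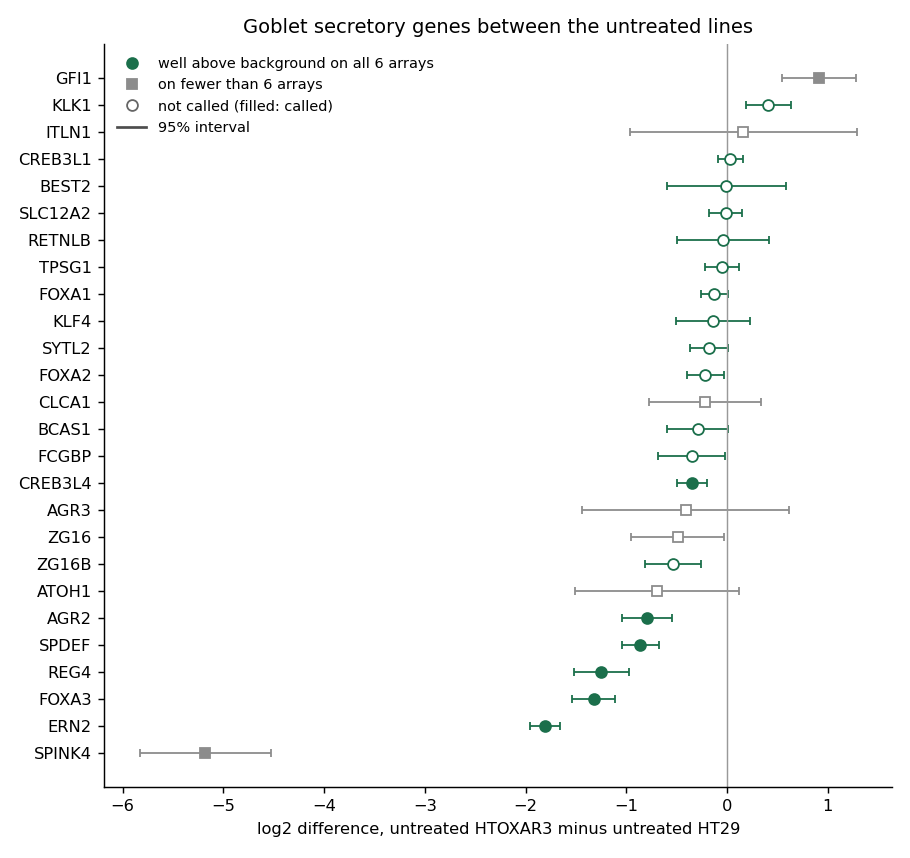
Log2 difference between the untreated lines, HTOXAR3 minus HT29 (x axis), for 26 genes of the goblet cell secretory programme (y axis, ordered by difference); points are limma estimates from 3 arrays a line, bars the 95% interval, filled where called, squares where the probe was not well above background on all 6 arrays. The called genes are 7 on the lower side and GFI1 on the higher side.

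TFF2, a trefoil factor known mainly from the stomach, averaged 10.37 in untreated HT29 and 11.33 in untreated HTOXAR3, with the opposite sign to TFF3 (log2 difference 0.96, SE 0.08, adjusted p = 1.34e-05). TFF1 averaged 9.42 and 9.14, on the same side as TFF3 and without overlap, but was not called (-0.28, 95% interval -0.46 to -0.09); it is given because it belongs to the same family, outside the rule for named genes. TFF2 was the only gene called among the 13 other mucins and trefoil factors (7.69%, beside 6.26% of all gene names called higher). In a fit of only the untreated groups TFF2 was not called. Of the 13 on the array, 11 were well above background on at least 1 array, and the list's median was -0.09.

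Of the 39 genes on the list of enzymes for mucin-type O-linked sugars, 6 were called higher (15.4%, beside 6.26% of all gene names) and 10 lower (25.6%, beside 5.28%) in untreated HTOXAR3, with a median of -0.12. A fit of only the untreated groups called 6 of the 39 in either direction, and 1258 of all gene names. GALNT12 (-1.41) and GALNT5 (-1.17), which attach the first sugar, and ST6GALNAC1, which adds sialic acid, were lower. GALNT10 (0.95), which also attaches the first sugar and falls outside the rule for named genes, was higher, as was FUT8 (1.11), a fucosyltransferase on the list that acts chiefly on N-linked sugars. Of 24 genes of absorptive enterocytes, 0 were called higher and 4 lower (16.7%), with a median of -0.37. DPP4, a brush border peptidase, was at -1.75, VIL1, which bundles actin in microvilli, at -1.61, and CDHR5, a microvillar cadherin, at -0.93.

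In HT29, MUC20 was called higher after OXA, and MUC13 was called lower in the unpaired fit but not in the paired one. MUC20, a membrane mucin known to bind the MET receptor, read 8.11, 7.997 and 8.18 untreated and 8.59, 8.55 and 8.51 with OXA. It was 1.38-fold higher with no overlap (log2 difference 0.46, SE 0.09, adjusted p = 0.00901), but not called without untreated replicate 2 (0.41, adjusted p = 0.0617). Its single probe lies at chr3:195464463-195464522, 9641 bases from the nearest MUC4 probe, and is assigned to an Ensembl transcript that was not matched in the RefSeq table, which also lists a pseudogene, MUC20P1.

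MUC13 read 7.01, 6.80 and 7.45 in untreated HT29 and 6.32, 6.42 and 6.45 with OXA. The groups did not overlap, and MUC13 was 1.61-fold lower (log2 difference -0.69, SE 0.15, adjusted p = 0.0299). This call was close to its threshold. In the paired fit, with the replicate number as a block, adjusted p was 0.0506, and with the slide as a block it was 0.054. It was lost without untreated replicate 1 (-0.73, adjusted p = 0.074) or 3 (-0.51, 0.114) and without OXA replicate 1 (-0.65, 0.139), 2 (-0.70, 0.101) or 3 (-0.72, 0.0826).

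TFF3 read 10.81, 10.97 and 10.97 in HT29 given OXA, below every untreated HT29 array, but was not called (log2 difference -0.53, SE 0.13, adjusted p = 0.0646). MUC1, the most widely expressed membrane mucin, read 9.30, 9.32 and 9.33 with OXA against 8.87, 8.93 and 9.01 untreated and was not called either (0.38, SE 0.13, adjusted p = 0.578). Of the 10 members, 1 was called higher and 1 lower after OXA in HT29, where 8.33% and 7.62% of all gene names were; in the paired fit the lower call, MUC13, was lost.

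In HTOXAR3, limma called 0 of the 10 members after OXA, where 5.31% of all gene names were called higher and 4.94% lower. At an unadjusted p under 0.05 there were 2 of the 10 members, MUC1 and MUC20, beside 10258 of 36203 gene names. MUC20 read 7.75, 7.90 and 7.86 untreated and 7.72, 7.45 and 7.66 with OXA, with the opposite sign to HT29 (log2 difference -0.23, SE 0.09, adjusted p = 0.903). MUC13 was at -0.22 (95% interval -0.54 to 0.10) and TFF3 at -0.10 (interval -0.37 to 0.18).

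The difference between the lines in the response of MUC20 to OXA was -0.69 (SE 0.12) and missed the threshold at adjusted p = 0.0584. It passed under 4 of the alternatives tried, among them Benjamini-Hochberg adjustment (adjusted p = 0.00527). None of the 10 members was called for a line difference in the response to OXA, which was called higher in 0.608% and lower in 0.398% of all gene names. In limma 3 of the 10 members had an unadjusted p under 0.05, beside 4944 of 36203 gene names.

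OXA plus Curcumin raised MUC20 in both lines relative to untreated cells. In HT29 it read 8.90, 8.96 and 8.80, 1.73-fold above untreated (log2 difference 0.79, SE 0.09, adjusted p = 5.69e-05). In HTOXAR3 it read 8.53, 8.66 and 8.77, 1.76-fold above untreated (0.82, SE 0.09, adjusted p = 4.98e-05). In neither line did the treated and untreated arrays overlap, and both calls held without any single array. The difference between the lines in this response was 0.02 (SE 0.12).

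TFF3 fell in HT29 under the combination. It read 10.31, 10.79 and 10.77, which was 1.77-fold below untreated HT29 (log2 difference -0.82, SE 0.13, adjusted p = 0.00169). Probe A_33_P3334305 was called too, at -0.79 (SE 0.15, adjusted p = 0.00896), while the mean of all 3 TFF3 probes was not (-0.54, adjusted p = 0.0637). In HTOXAR3 TFF3 read 8.12, 7.997 and 7.91, below every untreated HTOXAR3 array but not called (-0.46, SE 0.13, adjusted p = 0.153; 0.0138 by Benjamini-Hochberg). The line difference in this response was 0.37 (SE 0.18, adjusted p = 1).

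MUC13 under the combination stood above untreated cells in HTOXAR3, reading 6.72, 6.85 and 6.75 (log2 difference 0.63, SE 0.15, adjusted p = 0.0499). That call sat at the threshold. It was lost without untreated HTOXAR3 replicate 2 (0.54, adjusted p = 0.289) or 3 (0.60, 0.224) and without combination replicate 1 (0.66, 0.128), 2 (0.59, 0.231) or 3 (0.65, 0.155), and with the slide as a block (0.62, 0.115). In HT29 MUC13 read 7.42, 7.18 and 7.16, overlapping the untreated arrays (0.17, 95% interval -0.15 to 0.49).

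Counted over the 10 members, the combination gave 1 call higher and 1 lower in HT29, where 9.56% and 9.02% of all gene names were called, and 2 higher and 0 lower in HTOXAR3, where 8.82% and 8.64% were. No member was called for a line difference in the response to the combination (0.32% of all gene names called higher, 0.536% lower). In limma 2 of the 10 members, MUC13 and MUC2, had an unadjusted p under 0.05, beside 5202 of 36203 gene names.

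Curcumin itself can be read only as an addition to OXA. The study prepared Curcumin in ethanol and OXA in water. It does not state whether the cells given OXA alone also received ethanol. MUC13 was higher with the combination than with OXA in both lines: the HT29 arrays moved from 6.32, 6.42 and 6.45 to 7.42, 7.18 and 7.16 (log2 difference 0.86, SE 0.15, adjusted p = 0.0154). The HTOXAR3 arrays moved from 5.98, 5.97 and 5.83 to 6.72, 6.85 and 6.75 (0.85, SE 0.15, adjusted p = 0.011). No arrays overlapped in either line, and within slides the difference ran from 0.71 to 0.90. The line difference was -0.01 (SE 0.21).

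The size of this MUC13 difference changed little when arrays were left out, but its call did not always hold. In HT29 it ranged from 0.77 to 0.90 and was lost without combination replicate 1 (0.77, adjusted p = 0.104) or 2 (0.90, 0.0501) and without OXA replicate 1 (0.82, 0.0828), 2 (0.87, 0.066) or 3 (0.89, 0.0553). In HTOXAR3 it was lost without combination replicate 2 (0.81, 0.0609) or 3 (0.86, 0.051) and without OXA replicate 3 (0.80, 0.0687). With the slide as a block, it was 0.83 (adjusted p = 0.07) in HT29.

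MUC20 was 2.06-fold higher with the combination than with OXA in HTOXAR3 (log2 difference 1.04, SE 0.09, adjusted p = 2.13e-05). That call held without any single array, but not in a fit of only the groups compared (adjusted p = 0.0782). In HT29 the difference was 0.33 (SE 0.09, adjusted p = 0.197) and was not called, although the 3 combination arrays were above the 3 OXA arrays. The line difference, 0.71 (SE 0.12), had an adjusted p of 0.147 and passed under 2 alternatives. The order of the MUC20 group means was the combination in HT29, the combination in HTOXAR3, OXA in HT29, untreated HT29, untreated HTOXAR3 and OXA in HTOXAR3. The arrays of neighbouring groups in that order overlapped only between the combination in HTOXAR3 and OXA in HT29.

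The difference of MUC1 on adding Curcumin had the opposite sign to those of MUC13 and MUC20. In HTOXAR3 it read 8.67, 8.98 and 9.15 with OXA and 8.43, 8.43 and 8.31 with the combination, without overlap, but was not called (log2 difference -0.54, SE 0.13, adjusted p = 0.115). It was called without HTOXAR3 OXA replicate 1, the lowest of the 3 OXA arrays (-0.68). In HT29 the MUC1 difference was -0.32 (95% interval -0.60 to -0.03). TFF3 was at -0.30 in HT29 and -0.36 in HTOXAR3, neither called.

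Adding Curcumin gave 1 call higher and 0 lower among the 10 members in HT29, where 3.14% and 2.39% of all gene names were called, and 2 higher and 0 lower in HTOXAR3, where 4.43% and 4.41% were. No member was called for a line difference in the effect of adding Curcumin (0.0276% of all gene names higher, 0.108% lower). In limma 1 of the 10 members, MUC20, had an unadjusted p under 0.05, beside 3526 of 36203 gene names. Comparisons within a line share arrays, the untreated or the OXA group, so their values are not independent of one another.

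MUC2, MUC4 and MUC5AC were called in none of the 6 treatment comparisons. MUC4 group means ran only from 10.24 to 10.40, and the 3 repeat probes were well above background on all 18 arrays while A_24_P208825 was on 1. MUC2 group means on its brightest probe, A_23_P256784, ran from 7.30 to 7.70, with untreated HTOXAR3 lowest and untreated HT29 highest, and the neighbouring groups in that order overlapped throughout. That order did not hold on A_33_P3401571, where untreated HTOXAR3 averaged 7.61 and the combination in HT29 was lowest at 7.18. Under the combination this probe was at -0.57 in HT29 (SE 0.13, adjusted p = 0.0558 over all probes) and at -0.34 in HTOXAR3, where A_23_P256784 was at 0.31, none of them called. MUC5AC group means were 6.95 to 7.42 in HT29 and 6.31 to 6.52 in HTOXAR3.

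**Figure D4:**
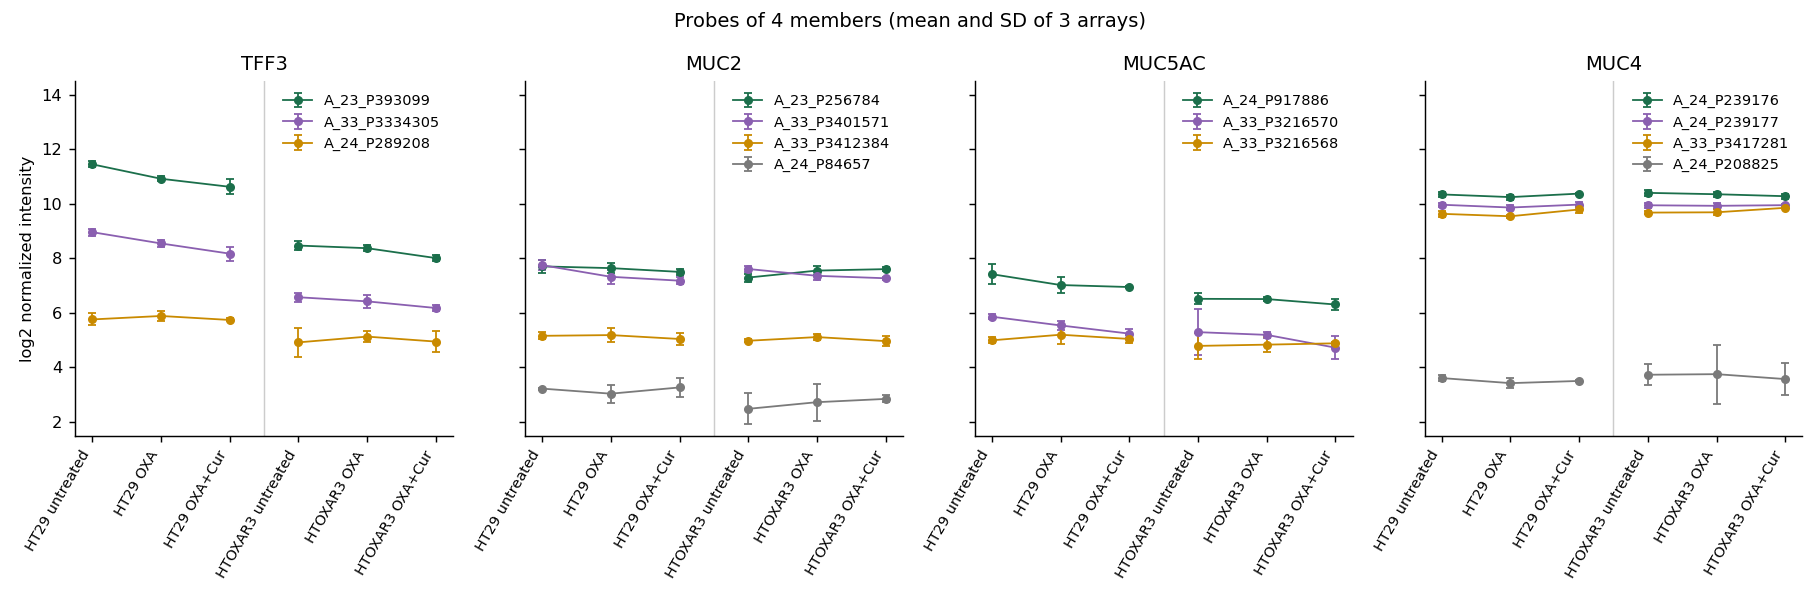
Log2 normalized intensity (y axis) of every probe of TFF3, MUC2, MUC5AC and MUC4 in the 6 groups (x axis); points are means and bars the SD of 3 arrays, and levels of different probes are not on a common scale. TFF3 probes A_23_P393099 and A_33_P3334305 drop together between the lines by 2.98 and 2.39, and the MUC4 probes stay level across groups.

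Goblet cell genes other than TFF3 moved in both directions under treatment. After OXA, 6 of the 26 were called higher and 7 lower in HT29, and 8 higher and 3 lower in HTOXAR3, with medians of -0.17 and 0.22. In fits of only the groups compared, 5 goblet genes were called in HT29 and 3 in HTOXAR3, beside 1338 and 592 of all gene names. BCAS1 was lower in both lines (-1.51 in HT29 and -2.01 in HTOXAR3) and KLK1, a kallikrein protease, higher in both (1.36 and 1.03). SYTL2, a protein of vesicle transport, and FOXA3 were higher in both lines as well (1.28 and 0.58 for SYTL2, 1.16 and 1.38 for FOXA3). FCGBP, a mucus protein that associates with MUC2, was called lower in HT29 (-1.28) and was at -0.41, not called, in HTOXAR3, but the line difference was not called either (0.86, SE 0.22, adjusted p = 0.542). KLF4, a transcription factor of goblet cell differentiation, was higher in both lines (1.08 in HT29 and 1.18 in HTOXAR3). SYTL2 in HTOXAR3 and FOXA3 and KLF4 in HT29 fall outside the rule for named genes and are given for comparison.

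Under OXA plus Curcumin, 6 goblet genes were called higher and 6 lower in HT29, and 5 and 5 in HTOXAR3, with medians of -0.10 and -0.004. The 4 called genes of largest difference in HT29 were REG4 (-1.84), SPINK4 (-1.56, SE 0.30, adjusted p = 0.0114), FCGBP (-1.38) and FOXA3, which was higher (1.14). In HTOXAR3 KLF4 was higher (1.38), and BCAS1 (-1.27), FCGBP (-1.23) and REG4 (-1.07) were lower. Adding Curcumin to OXA gave 2 calls higher and 1 lower in HT29, and 1 higher and 5 lower in HTOXAR3. In HT29 these were BCAS1 (0.96) and AGR2, a disulfide isomerase needed for MUC2 folding (0.71, SE 0.12, adjusted p = 0.0098), on the higher side and REG4 (-0.69) on the lower. In HTOXAR3 REG4 (-1.14), FCGBP (-0.82) and KLK1 (-0.61) were lower and BCAS1 higher (0.74).

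TFF2 rose with OXA in both lines, by 0.78 in HT29 and 0.88 in HTOXAR3, and was lower with the combination than with OXA in both (-1.06 and -0.51), all called. In fits of only the groups compared, TFF2 was not called after OXA in HT29 or for adding Curcumin in either line, and no gene of its list was called under the combination. TFF1 rose under the combination in HTOXAR3 (0.56, SE 0.09, adjusted p = 0.00174), as did TFF2 (0.37). Of the 13 other mucins and trefoil factors, 1 was called higher after OXA in each line (7.69%) and 0 lower. Of all gene names, 8.33% were called higher in HT29 and 5.31% in HTOXAR3, and 7.62% and 4.94% lower. Under the combination 0 were called in HT29, where 9.56% of all gene names were called higher and 9.02% lower. In HTOXAR3, 2 were called higher (15.4%, beside 8.82% of all gene names) and 1 lower (7.69%, beside 8.64%).

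GALNT5, an O-glycosylation enzyme that attaches the first sugar, rose in both lines. Its mean went from 7.11 untreated to 8.85 with OXA and 9.45 with the combination in HT29, and from 5.94 to 7.01 and 8.28 in HTOXAR3, and each treated group was called above untreated. C1GALT1C1, the chaperone of the enzyme that makes the core of most such sugars, was lower in both lines after OXA (-1.05 and -1.03). ST3GAL1, which caps that core with sialic acid, was higher (1.06 and 0.77). GALNT10 (-0.67) in HT29 and GALNT7 (-0.32) in HTOXAR3 were lower. Under the combination ST3GAL1 was higher (1.09 in HT29, 0.81 in HTOXAR3), and C1GALT1C1 (-0.94 and -0.79) and GALNT12 (-0.75 and -0.84) were lower. Of the 39 enzymes, OXA gave 4 calls higher and 5 lower in HT29 and 2 and 2 in HTOXAR3, and the combination 5 and 8 in HT29 and 3 and 4 in HTOXAR3. Adding Curcumin gave 1 and 1 in HT29, GCNT3 (0.41) and GALNT6 (-0.57), and 4 and 1 in HTOXAR3, with GALNT5 (1.27), B4GALT1 (0.49) and B3GNT3 (0.38) higher and GALNT12 lower (-0.48).

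Of the 24 absorptive genes, OXA gave 1 call higher, VIL1 (1.06), and 0 lower in HT29, and 0 and 1, CDHR5 (-0.38), in HTOXAR3. The combination gave 3 higher and 1 lower in HT29 and 2 and 0 in HTOXAR3. DPP4 was among those higher in both (0.90 and 0.83), with VIL1 (1.06) and CDHR5 (0.60) in HT29 and KRT20, a keratin of the intestinal epithelium (0.53), in HTOXAR3. Adding Curcumin gave 2 calls higher and 0 lower in each line, DPP4 again in both (0.68 and 0.79), with CDHR5 (0.90) in HT29 and KRT20 (0.52) in HTOXAR3. These list counts can be read against the shares of all gene names. After OXA, where 8.33% of all gene names were called higher and 7.62% lower in HT29, the goblet list had 23.1% and 26.9%, the O-glycosylation list 10.3% and 12.8%, and the absorptive list 4.17% and 0%. In HTOXAR3, with 5.31% and 4.94% of all gene names, the goblet list had 30.8% and 11.5%, the O-glycosylation list 5.13% in each direction, and the absorptive list 0% and 4.17%. Under the combination, with 9.56% and 9.02% of all gene names in HT29, the goblet list had 23.1% in each direction, the O-glycosylation list 12.8% and 20.5%, and the absorptive list 12.5% and 4.17%. In HTOXAR3, with 8.82% and 8.64%, they had 19.2% in each direction, 7.69% and 10.3%, and 8.33% and 0%. For adding Curcumin in HT29, with 3.14% and 2.39%, they had 7.69% and 3.85%, 2.56% in each direction, and 8.33% and 0%, and in HTOXAR3, with 4.43% and 4.41%, 3.85% and 19.2%, 10.3% and 2.56%, and 8.33% and 0%. No set test was run on these lists. In fits of only the groups compared, no gene of these lists was called for adding Curcumin in either line. For that comparison these fits called 16 of all gene names in HT29 and 223 in HTOXAR3. Over all gene names the median difference lay between -0.03 and 0.01 in the 6 treatment comparisons.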

How the data were processed

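Total RNA of 18 samples was labelled with Cy3 and hybridised to one-colour Agilent arrays. The deposited scanner files, made by the authors with Feature Extraction 10.7.3.1, hold spot intensity on a linear scale before normalization. The submitters' processing notes name limma, and the methods state normexp and quantile normalization; the normexp offset is not given in the sources used here. An unlabelled value table of the same arrays was not used. Here the mean signal was background corrected with normexp (offset 0), control spots were dropped, quantile normalization was applied, replicate spots were averaged, and the brightest probe stood for a gene name. limma 3.58.1 in R 4.3.3 was fitted with 1 term per group over all 18 arrays, and genes were called at Benjamini-Yekutieli adjusted p under 0.05 and fold above 1.2. The script was tested on simulated data. Precision is limited by 3 arrays a group. Figures were drawn with matplotlib.

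The members and gene lists were chosen with earlier results of these data known. All members are named; of each list, at most 4 genes a comparison, the called ones of largest difference whose probes stood well above background throughout that comparison. Of 24 probes, 20 carried an accession found in the RefSeq table (GRCh38.p14), each under its member's symbol; the MUC5AC probes and the MUC20 probe were not matched. Samples with the same replicate number deviated together in every pair for OXA in HT29 (correlations 0.118 to 0.241) and for adding Curcumin in HTOXAR3 (0.108 to 0.194), so the numbers were taken to pair the samples there, and not in the other comparisons. Only in these comparisons did every such pair also share a slide. Pairing by replicate and a shared slide cannot be told apart there. The arrays lay on 3 slides of 2, 8 and 8. Alternatives were another normexp offset, the scanner's processed signal, the mean of all probes, a filter on dim probes, slide and replicate blocks, fits of only the groups compared, Benjamini-Hochberg adjustment and leaving out each array. Differences within slides were added after the data were seen.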

Additional observations from a re-analysis of the deposited data

How the results depend on the processing

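No difference of a called member changed sign under any alternative run. Of 96 values of called members under settings other than leaving out an array, 78 kept their call and 18 lost it; of 72 with an array left out, 49 kept it and 23 lost it. TFF3 between the untreated lines kept its call throughout, from -3.08 to -2.07. The cause of the moves below was not tested, except that fits of only the groups compared hold fewer arrays. Those fits also called fewer gene names in all: 1258 between the untreated lines, 1338 after OXA in HT29 and 592 in HTOXAR3. They called 2056 under the combination in HT29 and 3013 in HTOXAR3, and 16 and 223 for adding Curcumin. Fits of only the groups compared called 1 member between the untreated lines, 0 after OXA in HT29, 1 under OXA plus Curcumin in each line and 0 for adding Curcumin in each line. The slide as a block left 1 after OXA in HT29, 1 under the combination in HTOXAR3 and 0 for adding Curcumin in HT29. The replicate block left 1 after OXA in HT29 and 1 under the combination in HTOXAR3, in both cases losing MUC13 (adjusted p = 0.0506 and 0.0792), and changed no other call of a member. The mean of all probes left 1 under the combination in HT29 and 1 in HTOXAR3, and a normexp offset of 50 left 1 in HTOXAR3. Benjamini-Hochberg adjustment gave 2 for adding Curcumin in HT29, MUC20 being added. It also called MUC2 between the untreated lines (adjusted p = 0.0445) and TFF3 after OXA in HT29 (0.00583), TFF3 under the combination in HTOXAR3 (-0.46, 0.0138) and MUC1 for adding Curcumin in HTOXAR3 (-0.54, 0.0104). TFF3 after OXA in HT29 was also called with offset 50 (0.0196) and with dim probes left out (0.0427). The line difference in the response to OXA gained 1 member, MUC20, with offset 50 (-0.58), the processed signal (-0.75), dim probes left out and Benjamini-Hochberg, and that in the effect of adding Curcumin gained 1, MUC20, with offset 50 (0.58) and Benjamini-Hochberg. Leaving out 1 array gave 2 to 3 calls between the untreated lines, 1 to 1 after OXA in HT29, 1 to 2 under the combination in HTOXAR3, 0 to 1 for adding Curcumin in HT29 and 1 to 3 in HTOXAR3. Scaling the processed signal by the 75th percentile put the median of all gene names at -0.19 for OXA in HTOXAR3, beside 0.009 in the values reported. The counts of called genes on the 4 lists moved by over 1.5 times in 61 of 320 cases, 23 of them in fits of only the groups compared and 14 under Benjamini-Hochberg. Fits of only the groups compared gave 5 goblet genes after OXA in HT29 (13 reported) and 3 in HTOXAR3 (11), 6 under the combination in each line (12 and 10), and 0 for adding Curcumin in each line (3 and 6). For the O-glycosylation list they gave 6 between the untreated lines (16 reported), 3 after OXA (9) and 4 under the combination (13) in HT29, and 0 for adding Curcumin in each line (2 and 5). They gave 0 absorptive genes for adding Curcumin in each line (2 and 2), and on the list of other mucins and trefoil factors 0 between the untreated lines (1), after OXA in HT29 (1), under the combination in HTOXAR3 (3) and for adding Curcumin in each line (1 and 1). Signal over background limits MUC5B, MUC12 and MUC17, for which no change can be read.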

Other observations

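Of 17387 gene names compared, those whose levels followed a member most closely over the 18 arrays were, for TFF3, ORMDL1 (r = 0.993), SMPD3 (0.991) and FAM149A (0.991). For MUC13 they were ANKEF1 (0.950), LRRC66 (0.928) and COX17 (0.925). For MUC5AC they were MEGF11 (0.933), RNU2-1 (0.933) and SMIM4 (0.930), and for MUC2 XLOC_014379 (0.877), PATE3 (0.873) and POM121L12 (0.846). The 18 arrays share 2 lines and 3 treatments, so these correlations describe the group pattern and carry no test.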
